A study of Mus musculus with 6 samples.

Results

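Genes of liver sinusoidal and vascular endothelium were followed in RNA of liver non-parenchymal cells. The 39 genes were taken by name from a list of sinusoidal markers, genes of all endothelium, endothelial transcription factors and angiocrine signals, and all 39 were among the 53546 genes in the count files. Wild type mice gave 3 libraries and SRA-/- mice another 3, all mice were male, and each had received acetaminophen into the peritoneum at 400 mg/kg 6 h before the cells were taken. SRA-/- mice lack scavenger receptor A, the product of Msr1, which macrophages and sinusoidal endothelial cells carry. The sources used here do not give strain, age or how the allele was made. Untreated mice were not analysed here, so both groups share the drug and no value is a response to it. The question set by the design is how the groups differ, with wild type as the reference.

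Sinusoidal endothelial cells line the blood channels of the liver. They are perforated by open pores, lack a firm basement membrane and clear proteins, lipoproteins and glycans from blood through scavenger receptors and lectins. Their identity rests on transcription factors such as GATA4 and c-MAF, and the endothelium of the central vein sends Wnt ligands and R-spondin 3 to neighbouring hepatocytes. Acetaminophen injury is known to reach the sinusoidal lining early.

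Library totals ran from 23757203 to 44003902 counts, and the 39 genes held 0.553% to 1.21% of them. All 39 passed the filter on low counts, the lowest value being 26 counts of Sox18 in SRA-/- replicate 3. Levels are given as CPM, which are counts set relative to the library total after TMM scaling. The endothelial label was borne out by its defining genes, since VE-cadherin (Cdh5) lay between 177 and 365 CPM and PECAM-1 (Pecam1) between 116 and 213 CPM in the 6 libraries. RNA of hepatocytes was also present, with 3.66% of counts in wild type replicate 3 to 10.5% in SRA-/- replicate 3 for 14 hepatocyte genes. Msr1, the targeted gene, was counted 1123, 1936 and 3838 times in wild type replicates 1, 2 and 3 against 1848, 1005 and 925 times in SRA-/- replicates 1, 2 and 3, which is 38.6, 73.5 and 114 CPM against 40.2, 33.6 and 42.0 CPM. The groups overlapped in Msr1, and since the labels name no disrupted exon, a value summed over all its exons does not check the genotype labels.

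Promoters are shown for 4 members whose levels moved together across the libraries, with a correlation of 0.97 or 0.98 to the genes of all endothelium over 6 libraries, a description that carries no test. The 4 were picked by name and not by that value. Other members with a window, such as Nrp1 at 0.99 and Stab1 at 0.97, followed those genes as closely. Each window holds 250 bases before and 50 bases after the start of the gene, 5′ to 3′ on the gene's strand, from RefSeq on GRCm38.p6. That build is not the mm39 of the counts. Clec4g (chr8:3720602-3720901, minus strand) and Stab2 (chr10:87007893-87008192, minus strand) encode uptake receptors, Tie1 (chr4:118489800-118490099, minus strand) a receptor tyrosine kinase and Flt4 (chr11:49609429-49609728, plus strand) VEGF receptor 3. Capitals mark the letters AGGAAG, read on either strand, a form of the core that ETS factors such as ERG bind.
Clec4g: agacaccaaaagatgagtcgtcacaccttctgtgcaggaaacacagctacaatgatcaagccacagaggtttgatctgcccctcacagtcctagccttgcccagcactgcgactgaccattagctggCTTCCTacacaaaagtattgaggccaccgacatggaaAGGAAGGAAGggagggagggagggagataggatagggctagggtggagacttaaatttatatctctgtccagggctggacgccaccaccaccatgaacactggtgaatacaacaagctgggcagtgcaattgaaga
Tie1: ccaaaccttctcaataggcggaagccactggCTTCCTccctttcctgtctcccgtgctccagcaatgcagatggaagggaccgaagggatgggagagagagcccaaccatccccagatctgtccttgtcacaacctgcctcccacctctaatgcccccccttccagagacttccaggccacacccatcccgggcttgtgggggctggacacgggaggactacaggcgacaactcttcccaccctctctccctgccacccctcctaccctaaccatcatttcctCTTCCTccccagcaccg
Stab2: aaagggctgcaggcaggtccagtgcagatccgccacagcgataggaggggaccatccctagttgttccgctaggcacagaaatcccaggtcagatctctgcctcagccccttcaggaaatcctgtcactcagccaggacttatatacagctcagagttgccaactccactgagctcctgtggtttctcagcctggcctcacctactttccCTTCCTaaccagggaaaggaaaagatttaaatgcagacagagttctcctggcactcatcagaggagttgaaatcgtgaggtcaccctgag
Flt4: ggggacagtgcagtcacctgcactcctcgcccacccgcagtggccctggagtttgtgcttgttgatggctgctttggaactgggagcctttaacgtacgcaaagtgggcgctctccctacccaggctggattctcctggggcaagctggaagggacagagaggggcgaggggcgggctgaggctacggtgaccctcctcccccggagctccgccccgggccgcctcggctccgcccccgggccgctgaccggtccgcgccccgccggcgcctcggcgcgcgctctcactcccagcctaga
Clec4g held 3 matches, 2 of which overlap, Tie1 held 2, Stab2 held 1 and Flt4 none. Windows were found for 21 of the 39 members, 25 windows in all, and 14 of the 25 (56.0%) held the ETS letters against 35.1% of 32544 mouse windows of the same length. A core of the zinc finger factors to which Gata4 belongs was searched on both strands as well. Its letters, AGATAA, were in 8.0% of the member windows and 11.2% of all windows. For CCACCC, a core that KLF factors bind, also on both strands, the shares were 48.0% and 31.6%. These are counts of letters, with no test, and say nothing of binding.

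None of the 39 members passed the test between groups, and the hyaluronan receptor gene Lyve1 had the smallest p and the largest difference. The test was edgeR's quasi-likelihood test with Benjamini-Hochberg adjustment over 20541 genes. It called 0 of 39 members, against 0.0487% of all tested genes in either direction and 0.0146% in the lower one. At an unadjusted p under 0.05 there was 1 member (Lyve1), against 3.22% of all tested genes. It lay lower in SRA-/- libraries, as did 0.896% of all tested genes, and 0 members lay higher, against 2.32%. DESeq2 called 0 members, with 1 at an unadjusted p under 0.05. Weighted limma-voom called 1, Lyve1, with 7 at an unadjusted p under 0.05. The share of all tested genes at that p was not taken for DESeq2 or limma-voom. All 39 members had a log2 fold change below 0 (51.7% of all tested genes), from -1.09 in Lyve1 to -0.04 in Robo4, with a median of -0.28 beside -0.01 over all tested genes. With the 6 junction genes as library size, 25 of 39 were below 0 and the median was -0.07. That scale sets the summed level of the 6 equal in all libraries, and they are among the 39, so these values are partly fixed by it. The share of all tested genes below 0 was not taken there. The members share their cells, so the 39 fold changes are not independent values. The 95% intervals of 38 members held 0 and those of 10 reached below -1, so for the other members a difference as large as a log2 of -1 lay outside the interval.

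**Figure D1:**
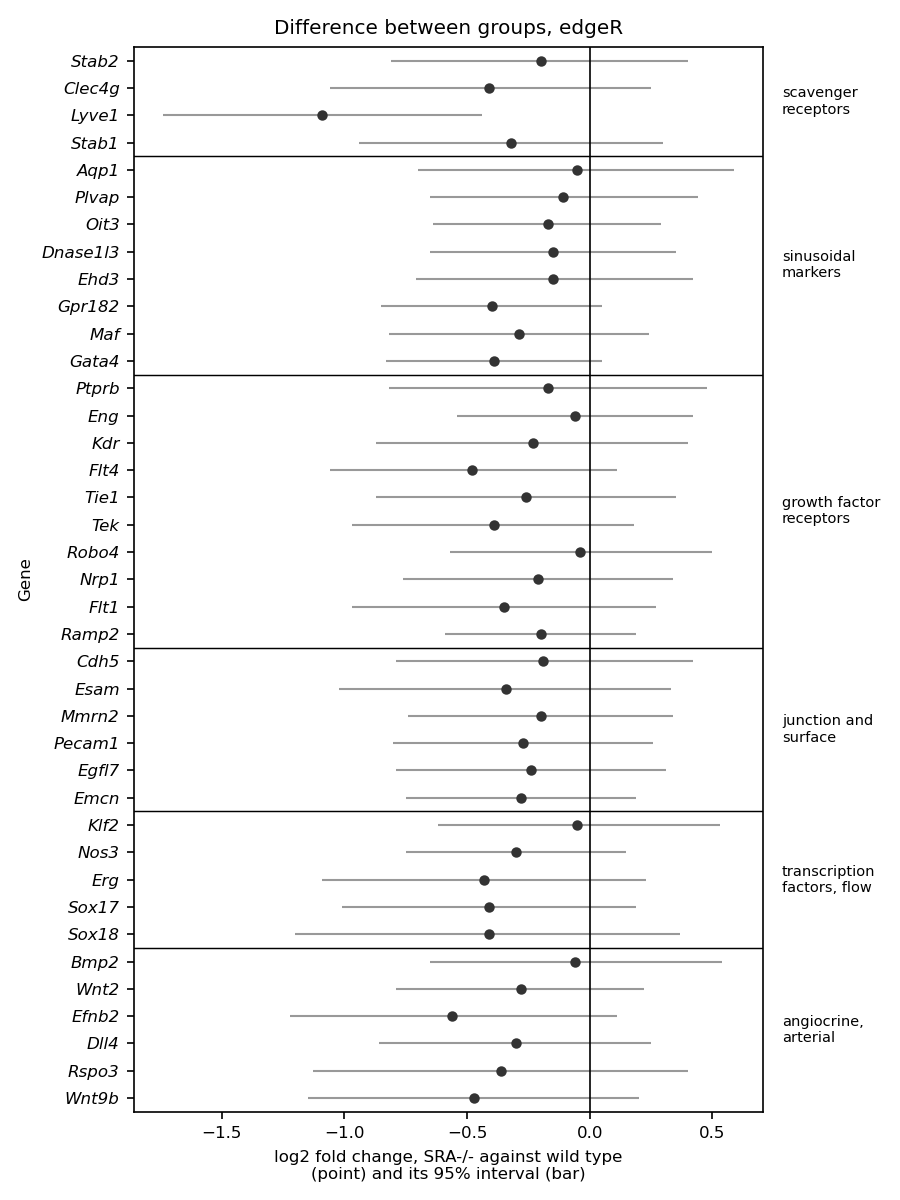
Log2 fold change of each of the 39 genes in SRA-/- against wild type libraries by edgeR (points) with its 95% interval (bars), grouped by role and ordered within a role by level per kilobase. All points lie below 0 (25 of 39 do with the junction genes as library size), and 38 of the 39 intervals, all but that of Lyve1, include 0.

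In most members the wild type libraries spanned a wider range than the fold between the groups. Wild type replicate 3 was the highest of the 6 libraries in 34 of 39 members, the exceptions being Plvap, Eng, Klf2, Sox18 and Wnt9b. Wild type replicate 1 was the lowest wild type library in 38 of 39, the exception being Sox18. The ratio of wild type replicate 3 to replicate 1 had a median of 1.83-fold over the members, from 0.718 in Sox18 to 2.53 in Rspo3, against 0.998 over all tested genes. In 37 members this ratio, taken in either direction, was larger than the fold between the groups. Single libraries spread more widely than means of 3 do, and the share over all tested genes was not taken, so this count has no background. In 36 members wild type replicate 1 lay within or below the range of the SRA-/- libraries, and in 20 it was the lowest of the 6. The SRA-/- libraries lay closer together, with a median of 1.3-fold from the lowest to the highest. Only 2 of 39 members, Lyve1 and Emcn, did not overlap between the groups, both lower in SRA-/- libraries, against 3.33% of all tested genes, and 0 members lay higher without overlap, against 3.97%. With wild type replicate 1 left out, 25 members did not overlap, 16 had an unadjusted p under 0.05 by edgeR and the median was -0.44. The share over all tested genes was not taken in this setting, so these counts have no background. With 2 against 3 libraries, values also separate more easily than with 3 against 3. With wild type replicate 3 left out, 26 of 39 members were below 0 and the median was -0.07. No member was called by edgeR in either case.

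**Figure D2:**
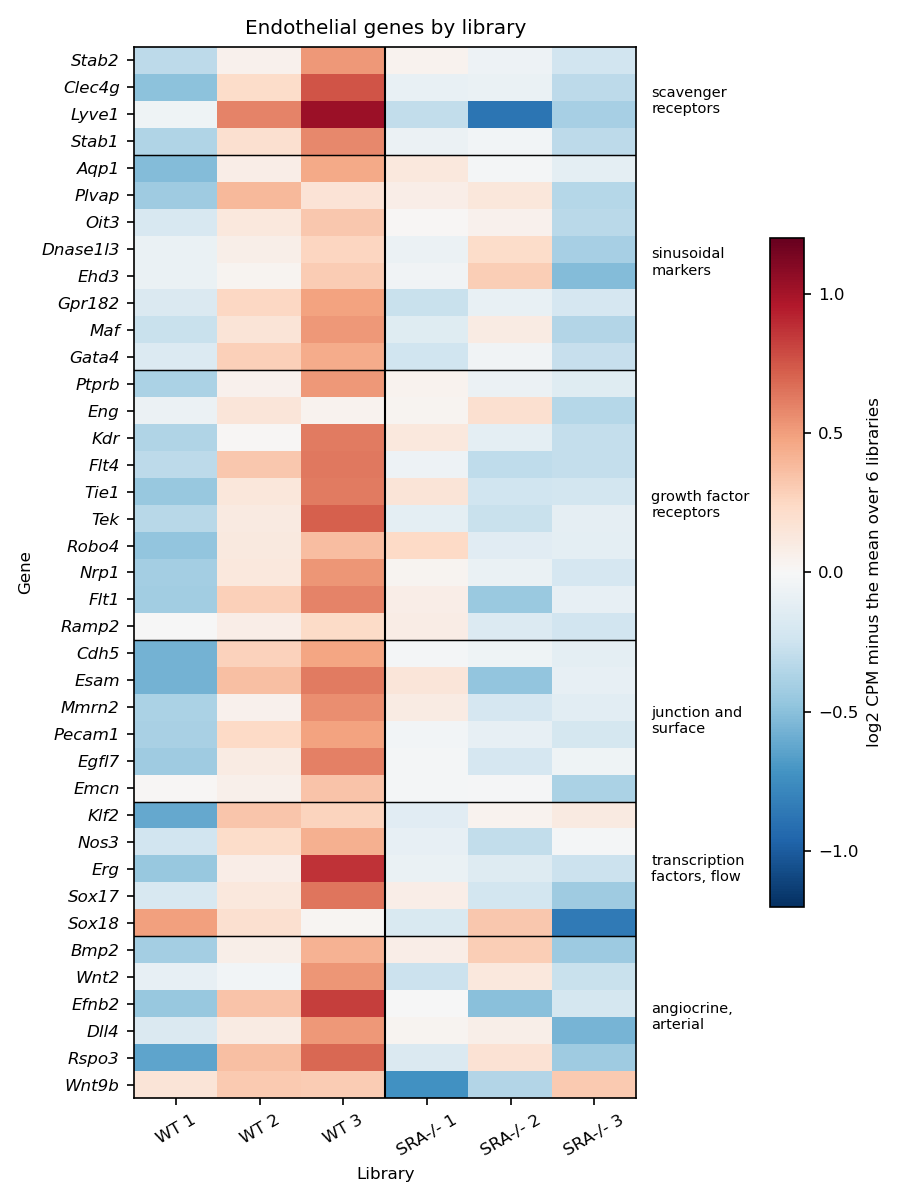
Deviation of log2 CPM from the mean over the 6 libraries for each of the 39 genes (rows, grouped by role) in each library (columns), red above and blue below the mean. The column of wild type replicate 3 is red in nearly every row, with a median of 0.52, and that of wild type replicate 1 is mostly blue, with a median of -0.36.

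The libraries also differed in genes of other cells, though not always the same ones stood apart. The summed level of 6 junction and surface genes of all endothelium was 507, 832 and 1020 CPM in wild type replicates 1, 2 and 3 and 717, 631 and 645 CPM in SRA-/- replicates 1, 2 and 3. The 14 hepatocyte genes summed to 95100, 68000 and 33800 CPM in the wild type libraries and to 64100, 59400 and 113000 CPM in the SRA-/- libraries. Wild type replicate 3, highest in endothelial genes, was thus lowest in hepatocyte genes. The 12 Kupffer cell and macrophage genes, all detected, summed to 847, 2060 and 1820 CPM and to 1370, 2200 and 1210 CPM, so wild type replicate 1 was lowest in them too. Neutrophil genes summed to 13.7, 29.1 and 37.4 CPM in wild type against 125, 38.8 and 163 CPM in SRA-/- libraries, and pancreatic acinar genes to 590, 521 and 1010 CPM against 4.77, 377 and 3.36 CPM. The part of these shifts in the endothelial values was not tested. In RNA of mixed cells, fewer endothelial cells and less RNA per endothelial cell cannot be told apart.

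**Figure D3:**
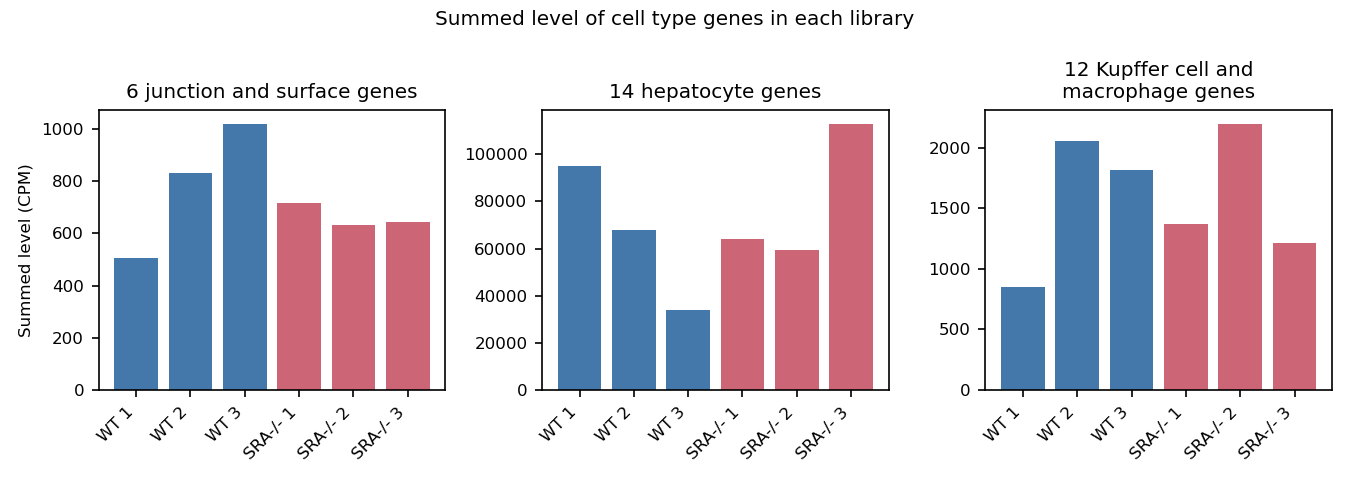
Summed level in CPM of 6 endothelial junction and surface genes, 14 hepatocyte genes and 12 Kupffer cell and macrophage genes in each library (bars, blue wild type, red SRA-/-). Wild type replicate 3 has the highest endothelial bar, 1020 CPM, and the lowest hepatocyte bar, 33800 CPM.

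Among the scavenger and uptake receptors, Lyve1 (chromosome 7, 110449814 to 110462446, mm39) had the largest difference of the 39. Lyve1 binds hyaluronan, and some macrophages and lymphatic endothelium carry it too. Its level was 160, 250 and 336 CPM in wild type replicates 1, 2 and 3 and 135, 89.6 and 125 CPM in SRA-/- replicates 1, 2 and 3. Every SRA-/- library lay under every wild type library, though wild type replicate 1 lay only a little above SRA-/- replicate 1. The log2 fold change was -1.09 ± 0.29 (SE), with a 95% interval of -1.74 to -0.44, and edgeR's adjusted p was 0.8014, from an unadjusted p of 0.00401. DESeq2 gave an adjusted p of 0.0774, and weighted limma-voom one of 0.0485. Left out one at a time, the libraries gave log2 fold changes from -1.32 (wild type replicate 1 left out) to -0.81 (wild type replicate 3 left out), with adjusted p between 0.125 and 0.9999 by edgeR. Msr1 had a log2 fold change of -0.96 ± 0.33 (SE) in the same fit.

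The other receptors of this role differed less. Stab2, the stabilin that takes hyaluronan and other glycans out of blood, was at 576, 745 and 1030 CPM in wild type against 739, 687 and 613 CPM in SRA-/- libraries, which gave a log2 fold change of -0.20 ± 0.27 with an interval of -0.81 to 0.40. Its SRA-/- values all lay inside the wild type range. Stab1, which macrophages also carry, had 690 ± 218 CPM in wild type and 553 ± 57.2 CPM in SRA-/- libraries (SD, n = 3 each), and its log2 fold change was -0.32. Clec4g, the lectin LSECtin, had 220 ± 90.5 CPM and 165 ± 14.6 CPM (SD, n = 3 each), and its log2 fold change was -0.41. In both genes the 3 SRA-/- libraries lay within the wild type range.

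Dividing each member by the summed level of the 6 junction and surface genes (Cdh5, Pecam1, Esam, Emcn, Egfl7 and Mmrn2) gave its level relative to the endothelial RNA of the library. A junction gene was set against the other members of the 6. On this scale the wild type libraries drew together in most members, with a median coefficient of variation over the members of 11.9%, against 29.8% in CPM. In some members it rose, as from 6.23% to 30.8% in Wnt9b, 7.61% to 30.9% in Eng and 12.5% to 29.1% in the junction gene Emcn. Lyve1 relative to these genes was 0.315, 0.3 and 0.330 in wild type replicates 1, 2 and 3 and 0.188, 0.142 and 0.194 in SRA-/- replicates 1, 2 and 3. The wild type values differed by little, and all SRA-/- values lay well below them. The ratio of the group means was 0.555, with a two-sided exact permutation p of 0.1, the smallest that 3 against 3 libraries can give. Stab2, by contrast, had means of 1.02 in both groups, with SDs of 0.121 and 0.0696. Set against each other member in turn, Lyve1 was lower in every SRA-/- library than in every wild type library in 33 of 38 ratios. The exceptions were the ratios to Wnt9b, Emcn, Dll4, Sox18 and Ehd3. All 38 ratios share the Lyve1 values, and most members moved together across the libraries, so these are not independent results. In edgeR with the junction genes as library size, Lyve1 had a log2 fold change of -0.85, with an adjusted p of 0.9998 from an unadjusted p of 0.0138.

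**Figure D4:**
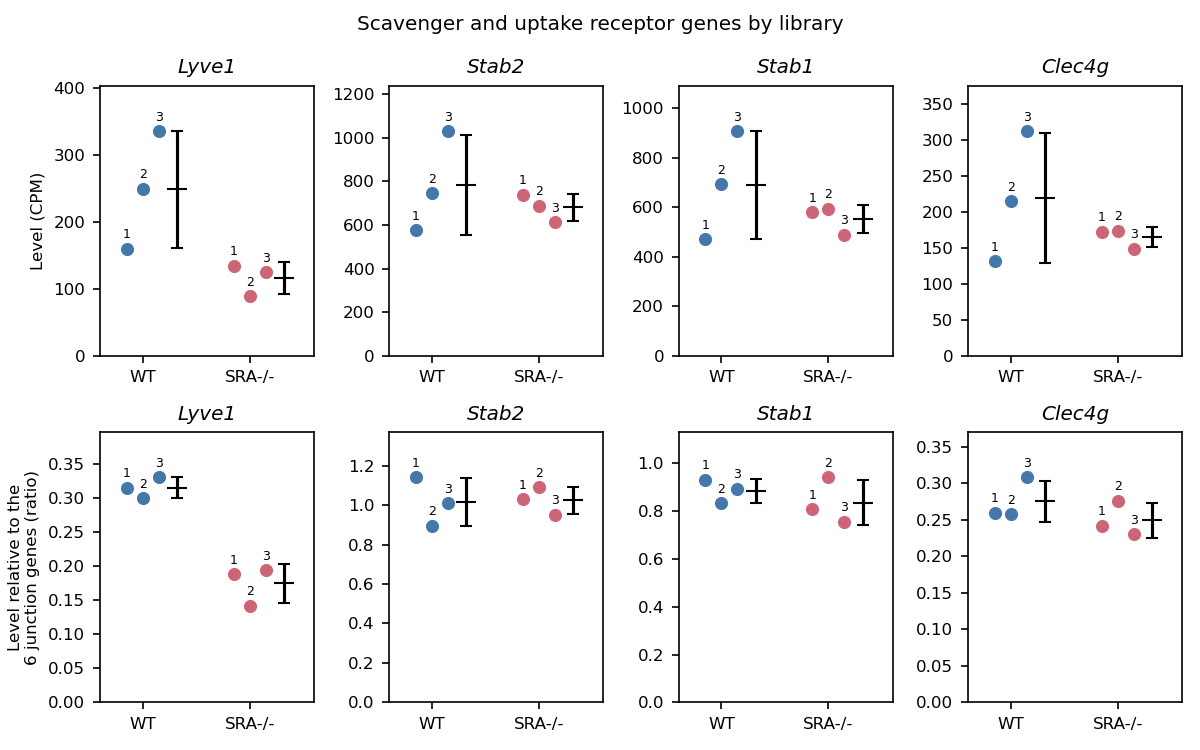
Level in CPM (top row) and relative to the 6 junction genes (bottom row) of Lyve1, Stab2, Stab1 and Clec4g, with each library as a numbered point and the mean ± SD of each group as a black bar (n = 3). Relative to the junction genes, Lyve1 lies at 0.3 to 0.330 in wild type and 0.142 to 0.194 in SRA-/- libraries, while the groups overlap in Stab2, Stab1 and Clec4g.

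On the same relative scale 3 of the 39 members did not overlap in the lower direction, Lyve1, Flt4 and Efnb2, against 0.799% of 20535 tested genes other than the junction genes. In the higher direction there were 2, Aqp1 and Robo4, against 5.83% of those genes. These shares are not a like background. Division by the junction genes puts their spread into genes that do not follow them, while it narrowed the spread of most members. The 39 also include the 6 junction genes, which the 20535 leave out. The 39 comparisons had exact permutation p-values of 0.1 or more, so none can pass a threshold of 0.05. Flt4, which encodes VEGF receptor 3 (chromosome 11, 49500090 to 49543566), was at 244, 379 and 471 CPM in wild type against 291, 246 and 249 CPM in SRA-/- libraries, overlapping between groups with a log2 fold change of -0.48 ± 0.26 (SE), which was -0.69 without wild type replicate 1 and -0.25 without wild type replicate 3. Relative to the junction genes it was 0.482, 0.456 and 0.464 in wild type against 0.406, 0.389 and 0.386 in SRA-/- libraries. The spread within each group was small there, with coefficients of variation of 2.88% and 2.78%, and the ratio of means was 0.844. With Stab2 alone, Ptprb alone or the other 38 members as denominator, the ratio was 0.833, 0.807 and 0.841 for Flt4 and 0.551, 0.533 and 0.553 for Lyve1, with no overlap between the groups in any of them. Set against each other member in turn, however, Flt4 separated in the lower direction in 12 of 38 ratios, those to Stab2 and Ptprb among them, so its separation depended on the denominator. For Efnb2 this was so in 5 of 38, and in the higher direction for Aqp1 in 16 of 38 and for Robo4 in 8 of 38.

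Efnb2, the ephrin ligand of arterial endothelium, had 26.9, 47.0 and 65.7 CPM in wild type against 36.8, 26.1 and 32 CPM in SRA-/- libraries, which gave a log2 fold change of -0.56 ± 0.30 (SE). It was -0.82 without wild type replicate 1 and -0.22 without wild type replicate 3. Relative to the junction genes its means were 0.0581 ± 0.00597 and 0.0474 ± 0.00529 (SD, n = 3 each), and the nearest libraries of the 2 groups were 0.0530 and 0.0513. Aqp1, the water channel, which bile duct cells also make, was at 588, 893 and 1150 CPM in wild type against 923, 834 and 781 CPM in SRA-/- libraries. Its relative level was 1.16, 1.07 and 1.14 in wild type against 1.29, 1.32 and 1.21 in SRA-/- libraries, higher in each of the latter. Robo4, a receptor that steadies vessels, had relative levels of 0.159, 0.146 and 0.142 and of 0.185, 0.162 and 0.160. The closest values of the 2 groups were 0.159 and 0.160, so this separation was narrow.

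**Figure D5:**
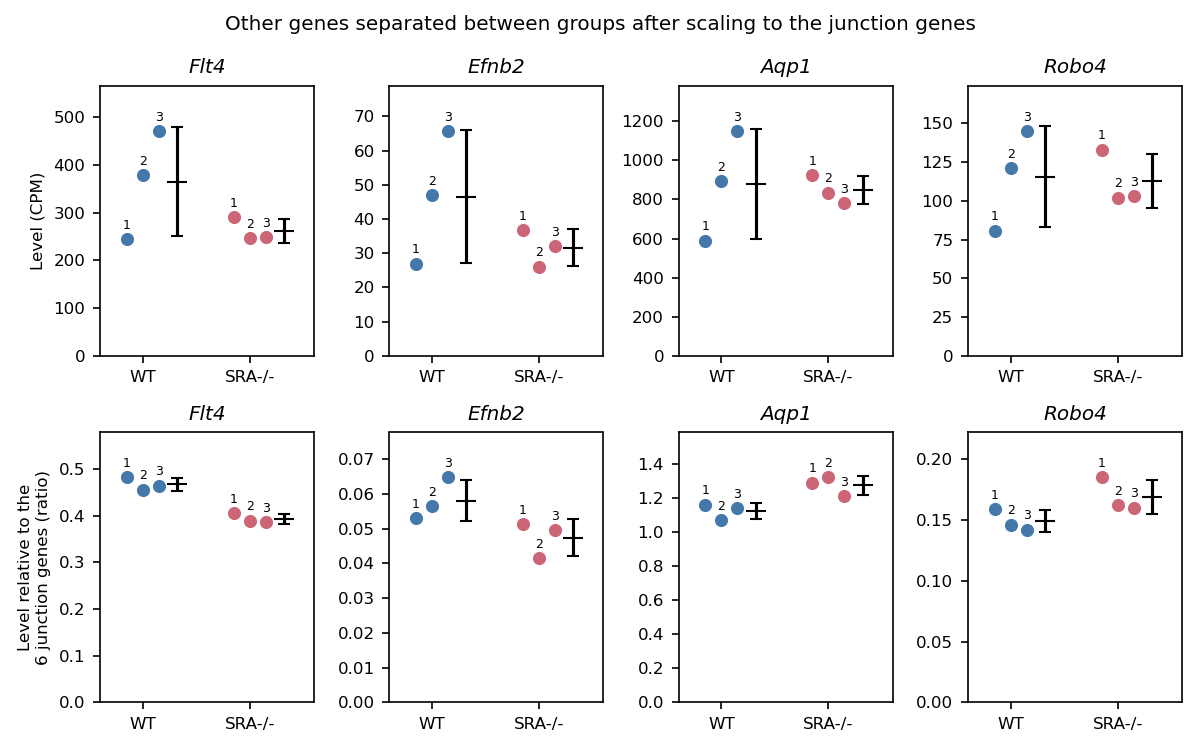
Level in CPM (top row) and relative to the 6 junction genes (bottom row) of Flt4, Efnb2, Aqp1 and Robo4, with each library as a numbered point and the mean ± SD of each group as a black bar (n = 3). The groups overlap in CPM in all 4 genes and separate on the relative scale, in Robo4 by 0.159 against 0.160.

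Among the receptors for growth and guidance factors, all 10 had log2 fold changes below 0, with a median of -0.22, and 0 had an unadjusted p under 0.05 by edgeR. Kdr (VEGF receptor 2), the main receptor of VEGF-A in endothelium, was at 334, 434 and 662 CPM in wild type against 467, 397 and 353 CPM in SRA-/- libraries. Its log2 fold change was -0.23, with an interval of -0.87 to 0.40. Relative to the junction genes it was 0.611 ± 0.0774 and 0.609 ± 0.0555 (SD, n = 3 each). Flt1, the VEGF receptor that also acts as a trap, and Nrp1, a co-receptor, had log2 fold changes of -0.35 and -0.21. Tek, the angiopoietin receptor TIE2, was at 85.3, 116 and 176 CPM in wild type against 98.9, 88.8 and 99.2 CPM in SRA-/- libraries, which gave a log2 fold change of -0.39 ± 0.26 (SE). That value was -0.60 without wild type replicate 1 and -0.07 without wild type replicate 3. Its partner Tie1 had -0.26. Ptprb, the phosphatase that restrains TIE2, was the most abundant of this role per length and had 954, 1290 and 1780 CPM in wild type against 1280, 1180 and 1120 CPM in SRA-/- libraries. In Kdr, Tek and Ptprb every SRA-/- library lay inside the wild type range. Eng, a co-receptor of BMP ligands, was the steadiest of the role in wild type, at 300 ± 22.9 CPM against 288 ± 52.6 CPM in SRA-/- libraries (SD, n = 3 each). Ramp2, which forms the adrenomedullin receptor, had a log2 fold change of -0.20, and 33.4% of its exon length overlaps Vps25, and reads shared by both genes were not counted.

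The 6 junction and surface genes had a median log2 fold change of -0.26, from -0.34 in Esam to -0.19 in Cdh5. Cdh5, which seals the junctions between endothelial cells, was at 177, 317 and 365 CPM in wild type against 258, 253 and 242 CPM in SRA-/- libraries. Its SRA-/- values were nearly equal and lay between wild type replicates 1 and 2. Emcn, a sialomucin of the endothelial surface, was at 8.56, 8.85 and 10.7 CPM in wild type against 8.29, 8.35 and 6.49 CPM in SRA-/- libraries, without overlap and with a log2 fold change of -0.28 ± 0.21 (SE) and an adjusted p of 0.9999 by edgeR. The gap between wild type replicate 1 and SRA-/- replicate 2 was small, and the log2 fold change was -0.17 without wild type replicate 3. With library totals alone as the scale, 1 member did not overlap in place of 2. Egfl7, the host gene of miR-126, had a log2 fold change of -0.24, with 11.2% of its exon length shared with other genes.

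The sinusoidal identity genes had a median log2 fold change of -0.16 over 8 members. Gata4, which encodes the transcription factor that sets sinusoidal against continuous endothelium, was at 29.9, 40.9 and 45.6 CPM in wild type against 28.4, 32.6 and 27.7 CPM in SRA-/- libraries. Gpr182, an atypical chemokine receptor of sinusoids, was at 79.2, 106 and 124 CPM in wild type against 73.8, 83.8 and 77.3 CPM in SRA-/- libraries. In both genes wild type replicates 2 and 3 lay above all SRA-/- libraries and wild type replicate 1 lay among them. The log2 fold changes were -0.39 ± 0.19 and -0.40 ± 0.20 (SE), with unadjusted p of 0.0734 and 0.0757 and adjusted p of 0.9999 by edgeR. Leaving out wild type replicate 1 gave -0.54 for Gata4 and -0.55 for Gpr182, and leaving out wild type replicate 3 gave -0.26 and -0.24. Maf had -0.29, and macrophages express it as well. Dnase1l3, a secreted nuclease, and the membrane-trafficking gene Ehd3 followed the junction genes less closely, with correlations of 0.57 and 0.52 over the 6 libraries, and SRA-/- replicate 2 was second highest in both. Their levels there were 321 and 386 CPM, against 209 and 219 CPM in SRA-/- replicate 3. Oit3 had a log2 fold change of -0.17, and Plvap, a protein of the diaphragms that close endothelial pores, -0.11.

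Of the 5 transcription factor and flow genes, Erg was at 22.4, 32.5 and 55.9 CPM in wild type against 29.1, 27.7 and 25.7 CPM in SRA-/- libraries. Its log2 fold change of -0.43 ± 0.29 (SE) rested on wild type replicate 3 and was 0 without it. Sox17, a factor of arterial endothelium, was at 6.39, 7.97 and 11.4 CPM in wild type against 7.73, 6.25 and 5.40 CPM in SRA-/- libraries, with a log2 fold change of -0.41, or -0.15 without wild type replicate 3. Its relative Sox18 was among the lowest members, at 2.61 ± 0.445 CPM and 1.94 ± 0.78 CPM (SD, n = 3 each). Klf2, which blood flow induces in endothelium and which lymphocytes also express, was at 105, 203 and 194 CPM in wild type against 147, 166 and 174 CPM in SRA-/- libraries. Wild type replicate 1 alone was low, and the log2 fold change of -0.05 had an interval of -0.62 to 0.53. Nos3, the endothelial nitric oxide synthase, was at 35.3, 48.3 and 55.8 CPM in wild type against 38.7, 33.7 and 40.9 CPM in SRA-/- libraries, with a log2 fold change of -0.30 ± 0.20 (SE). Without wild type replicate 1 this was -0.45 and without wild type replicate 3 it was -0.15. Atg9b and Gm15587 on the opposite strand overlap 32.3% of its exon length. For Sox17, Gm37587 on the opposite strand overlaps 16.8%.

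Of the angiocrine and arterial genes, Efnb2, Wnt9b, Wnt2, Dll4 and Rspo3 were among the lower members per kilobase, and Bmp2 stood 16th of 39. Wnt2, a ligand that acts on hepatocytes and endothelium, was at 17.2, 18.0 and 26.8 CPM in wild type against 15.5, 20.2 and 15.3 CPM in SRA-/- libraries, overlapping with a log2 fold change of -0.28 ± 0.22 (SE), which was -0.05 without wild type replicate 3 and -0.42 without SRA-/- replicate 2. Wnt9b, a ligand of central vein endothelium, was at 4.64, 5.20 and 5.15 CPM in wild type against 2.48, 3.24 and 5.17 CPM in SRA-/- libraries. Its wild type libraries were nearly equal, unlike those of most members, and SRA-/- replicate 3 lay among them. Its log2 fold change was -0.47 ± 0.30 (SE), and -0.25 without SRA-/- replicate 1 and -0.81 without SRA-/- replicate 3, the latter with edgeR's p at 0.0204 before and 0.9997 after adjustment. Rspo3, which strengthens Wnt signals, was at 3.68, 7.40 and 9.30 CPM in wild type against 5.09, 6.48 and 4.27 CPM in SRA-/- libraries, with a log2 fold change of -0.36 ± 0.34 (SE), which was -0.65 without wild type replicate 1 and -0.07 without wild type replicate 3. Bmp2, with which sinusoidal cells control hepcidin in hepatocytes, was at 116, 161 and 205 CPM in wild type against 162, 188 and 113 CPM in SRA-/- libraries, with a log2 fold change of -0.06 and an interval of -0.65 to 0.54. The arterial Notch ligand Dll4 had a log2 fold change of -0.30. Gm48159 on the opposite strand overlaps 13.1% of the exon length of Rspo3. Of 12 pericentral genes of hepatocytes that respond to Wnt signals, 0 had an unadjusted p under 0.05 by edgeR and 6 were below 0, with a median of -0.01. Their sum was 2330, 1910 and 1170 CPM in wild type against 1600, 1870 and 1650 CPM in SRA-/- libraries, lowest in the library with the fewest hepatocyte counts.

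Levels of different genes were compared per kilobase of exon, as CPM per kilobase averaged over 6 libraries. Aqp1 stood first at 328, with 224 to 439 over the libraries, apart from the rest. Ptprb at 94.9, Klf2 at 89.2, Stab2 at 83.6, Clec4g at 78.2 and Eng at 72.7 followed, and their ranges over the libraries overlapped. Lyve1 was the 9th at 62.5, with a range of 30.7 to 115. The lowest were Wnt9b at 0.955, Sox18 at 1.40, Sox17 and Emcn at 1.58 and Rspo3 at 1.95, so the members spanned 343-fold.

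Over the 6 libraries the log2 CPM of pairs of members had a median correlation of 0.78 in 741 pairs, from -0.36 to 0.99. The pairs share libraries and depth, so this is a description. Nrp1 followed the junction genes most closely, at 0.99, and Sox18, Wnt9b and Eng least, at -0.03, 0.21 and 0.37. Among 12920 other genes with a mean of at least 1 CPM and an established symbol, the 5 closest to the junction genes were Itga9 at 0.998, Cers4 at 0.998, Klhl36 at 0.996, Ost4 at 0.995 and Tacc1 at 0.994. Itga9, an integrin subunit, was at 171, 274 and 383 CPM in wild type against 233, 201 and 202 CPM in SRA-/- libraries, again highest in wild type replicate 3.

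Other genes of endothelial pathways, from lists of genes that are not members, showed 0 calls by edgeR, against 0.0487% of all tested genes. Over all tested genes, 3.22% had an unadjusted p under 0.05 and 51.7% had a log2 fold change below 0. Of 8 tested VEGF and angiopoietin ligands and related genes, 0 had an unadjusted p under 0.05 and 5 were below 0, with a median of -0.14, and Vegfd had -0.72 ± 0.38 (SE). Of 15 tested Notch and BMP genes 0 had one and 8 were below 0, with a median of -0.01. In these, Jag1, a Notch ligand, was at 18.8, 16.4 and 20.4 CPM in wild type against 15.7, 11.8 and 15.7 CPM in SRA-/- libraries, and Bmp4 was at 1.79, 2.01 and 2.90 CPM against 3, 3.14 and 3.04 CPM. Neither overlapped between the groups, Jag1 being lower and Bmp4 higher in SRA-/- libraries, against 3.33% and 3.97% of all tested genes. Genes without overlap were not counted over these lists. Of 13 genes of capillary and large-vessel endothelium 1 had an unadjusted p under 0.05, the fatty acid carrier Cd36, at 88.1, 122 and 164 CPM in wild type against 93.3, 83.2 and 80.2 CPM in SRA-/- libraries, with a log2 fold change of -0.54 ± 0.23 (SE) and an adjusted p of 0.9999 by edgeR. Ackr1, a chemokine-binding protein of venules, was low in both groups, at 1.17, 1.29 and 1.95 CPM against 2.26, 2.47 and 2.00 CPM. It was higher in SRA-/- libraries without overlap, though the nearest values, 1.95 and 2.00 CPM, were close. The markers of continuous vessels Cd34 and Vwf had log2 fold changes of 0.21 ± 0.29 and -0.11 ± 0.21 (SE).

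Of 16 flow and nuclear regulators 0 had an unadjusted p under 0.05 and 13 were below 0, against 51.7% of all tested genes, with a median of -0.17. Nr2f2, with the smallest p of them, was at 28.3, 30.3 and 28.2 CPM in wild type against 25.2, 27.4 and 19.5 CPM in SRA-/- libraries. It was lower without overlap, with a log2 fold change of -0.27 ± 0.18 (SE). Thrombomodulin (Thbd) was at 209, 610 and 711 CPM in wild type against 334, 201 and 438 CPM in SRA-/- libraries. Of 28 further genes of sinusoidal or other liver endothelium 0 had an unadjusted p under 0.05 and 24 were below 0, with a median of -0.23. Hepatocyte growth factor (Hgf), which stellate cells also make, had a log2 fold change of -0.43 ± 0.21 (SE) there. The 28 summed to 2430, 3990 and 5240 CPM in wild type against 3880, 3200 and 3210 CPM in SRA-/- libraries. Wild type replicate 3 was again highest and replicate 1 lowest, so these genes are not independent of the members. Of 5 lymphatic genes 0 had an unadjusted p under 0.05 and 2 were below 0. Reln, at 236 to 428 CPM, is also on the list of stellate cell genes, so the 5 do not stand for lymphatic endothelium alone. Mmrn1 was at 5.02, 7.06 and 8.59 CPM in wild type against 5.22, 6.55 and 2.18 CPM in SRA-/- libraries. Its log2 fold change was -0.56 ± 0.38 (SE). Podoplanin (Pdpn), a defining gene of lymphatic endothelium, lay at 0.55 to 1.41 CPM, with a log2 fold change of 0.37 ± 0.43 (SE). Prox1, which hepatocytes also express, had a log2 fold change of -0.04 ± 0.21 (SE). Beside Lyve1, the Kupffer cell genes Clec4f, Vsig4 and Timd4 had log2 fold changes of -0.19 ± 0.35, -0.07 ± 0.39 and 0.29 ± 0.45 (SE), and the summed macrophage list overlapped between the groups. Their part in the value of Lyve1 was not tested.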

How the data were processed

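Per the labels' protocols, non-parenchymal cells of 6 livers gave total RNA, which was freed of ribosomal RNA and sequenced. The deposited values are raw counts per gene, which the authors made with featureCounts 2.0.2 over GENCODE exons by gene name, without strand, per the file headers. FastQC, STAR and build mm39 are named in the submitters' processing notes, and the aligner's version is not given in the sources used here. Groups and replicate numbers come from the titles, which call the replicates biological. Both mates of a pair were mostly counted (68.5% to 71.9% of counts from 1 to 4 were even), so counting error exceeds what the counts give. By the recorded options, reads in more than one gene were left uncounted.

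Counts were filtered with filterByExpr (20541 of 53546 genes), scaled by TMM and tested with edgeR 4.0.16 in R 4.3.3 (glmQLFit, robust, on group alone), with Benjamini-Hochberg adjustment over all tested genes and a threshold of 0.05. Each standard error was the fold change divided by the root of F. The common coefficient of biological variation was 0.282. Correlations and the junction gene profile used log2 CPM with a prior count of 2. Every member was kept. Values in each library are given for members without overlap, the 10 smallest p, the most abundant member of each role and 4 angiocrine genes, and for up to 3 genes of each pathway list, while Kdr, Robo4 and the single libraries given for Dnase1l3 and Ehd3 were chosen after their values were seen. The members and lists were chosen with earlier results of these data known. Alternatives were DESeq2 1.42.0 and its size factors, limma-voom (limma 3.58.1), library totals, 2 other filters, removal of hepatocyte and mitochondrial genes, the junction genes as library size, a block and each library left out. The count of members below 0, its value on the junction gene scale and the other denominators for Lyve1 and Flt4 were added after seeing the data. Scripts were tested on simulated data.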

Additional observations from a re-analysis of the deposited data

How the results depend on the processing

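Among recomputed log2 fold changes of 19 named members, 267 kept their direction and stayed on the same side of the threshold, 17 changed sign and 1 passed it, that of Lyve1 by limma-voom (-1.05, adjusted p 0.0485). Signs turned for Klf2 (0.01) with the replicate block and for Stab2 (0.01), Cdh5 (0.06), Ptprb (0.06), Bmp2 (0.17), Aqp1 (0.18) and Klf2 (0.20) with the junction genes as library size, on which scale 25 members were below 0 and the median was -0.07. That scale holds the summed level of the junction genes, Cdh5 among them, equal in all libraries. With 1 library left out, log2 fold changes ran from -0.68 to 0 for Erg, -0.37 to 0.04 for Stab2, -0.43 to 0.02 for Cdh5, -0.35 to 0.09 for Ptprb, -0.23 to 0.16 for Bmp2, -0.27 to 0.19 for Aqp1 and -0.28 to 0.11 for Klf2. The members called stayed at 0 throughout except for 1 by limma-voom. With 1 library left out, members with an unadjusted p under 0.05 ran from 1 to 16, the latter without wild type replicate 1, and they were 7 by limma-voom. In the same way members without overlap ran from 2 to 25, and were 1 with library totals alone. For both counts, shares over all tested genes were taken in the main fit alone. Members below 0 ran in the same way from 26 to 39 and the median from -0.44 to -0.07. Over all genes, calls numbered 10 (7 higher, 3 lower), and 65 (54 higher, 11 lower) by DESeq2, 75 (64 higher, 11 lower) by limma-voom, 32 with no filter on low counts, 5 with the replicate block, and 3 to 40 with 1 library left out, the latter without SRA-/- replicate 2 (12 higher, 28 lower). The causes were not tested.

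No sign was seen that replicate numbers pair the libraries, which 3 libraries in a group can show only weakly. Deviations from the group means of libraries with the same number correlated at -0.29, -0.14 and -0.13, and 0 of 6 libraries correlated best with their own number. The replicate block left 0 members called, with 1 member at an unadjusted p under 0.05, 38 below 0 and a median of -0.26. Depth allows 6 counts, or 3 fragments, to stand for 0.136 to 0.253 CPM, below the lowest member.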
